A study of Mus musculus with 4 samples.

Results

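The lecticans versican (Vcan), neurocan (Ncan), brevican (Bcan) and aggrecan (Acan), the tenascins Tnc and Tnr, and their partners Ptprz1, Cspg5 and Hapln1 were followed in single-cell RNA libraries of mouse cerebral cortex. The 9 genes were taken by symbol from the 57126 features of each library, and each matched 1 row in all 4 libraries. They were read as raw counts, summed over all barcodes of a library and over barcodes grouped by markers that include none of the 9.

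The libraries came from 4 mice, 1 for each combination of age and genotype. The groups were the P0 (postnatal day 0) knockout and P0 wild type, and the E14.5 (embryonic day 14.5) knockout and E14.5 wild type, where the knocked-out gene is Tsku. Its product, Tsukushi, is a small leucine-rich proteoglycan released by cells. The labels give neither strain, sex nor the form of the Tsku allele, and no agent was applied to any group. Cortex was dissociated with trypsin, and 15000 cells per sample entered the bead-based Asteria kit, so a value can reflect which cells survived dissociation. With 1 animal per group there was no replicate, no test was possible between genotypes or ages, and every interval given is a 95% interval for counting error only.

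After filtering, 1436 barcodes remained in the P0 knockout, 1047 in the P0 wild type, 4107 in the library labelled E14.5 knockout and 620 in the E14.5 wild type. Median depth was 5060 and 4807 counts per barcode in the P0 knockout and P0 wild type. It was 2829 in the library labelled E14.5 knockout, against 7345.5 in the E14.5 wild type, so the E14.5 pair is unequal in both size and depth. Tsku had 0 counts in the P0 knockout and 42 in the P0 wild type, but 74 in the library labelled E14.5 knockout and 54 in the E14.5 wild type. The count therefore goes against the E14.5 label, and any E14.5 direction below belongs to the library so labelled. Sex-linked transcripts also differ within the E14.5 pair: Xist, transcribed from the inactive X chromosome, had 6719 counts in the library labelled E14.5 knockout and 3 in the E14.5 wild type. The Y-linked Ddx3y had 1 count in the library labelled E14.5 knockout and 496 in the E14.5 wild type. Sex and label therefore cannot be told apart in the E14.5 pair. At P0 Xist had 1 count in each library, and Ddx3y 1190 in the knockout and 670 in the wild type. Only 4 barcode sequences occurred in more than 1 library.

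Lecticans are secreted chondroitin sulfate proteoglycans that bind hyaluronan at one end and tenascins at the other, and link proteins such as Hapln1 hold them on the hyaluronan chain. Ptprz1 is a receptor tyrosine phosphatase whose outer part carries chondroitin sulfate and binds pleiotrophin, contactin and tenascins, and one of its splice forms is the secreted proteoglycan phosphacan. In developing cortex these molecules fill the space between radial glia, migrating neurons and growing axons, and in the adult aggrecan, Hapln1 and Tnr condense around neurons as perineuronal nets. The counts are per gene, so versican isoforms and phosphacan cannot be told apart from the other forms.

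RefSeq promoters, 250 bases before to 50 after the transcription start, were found for 8 of the 9 genes, Cspg5 being the one without an entry. The windows of Ncan, Bcan, Tnc and Ptprz1 are shown because these genes were all more than 2-fold higher at P0 than at E14.5 in wild-type astroglia. Positions are in GRCm38.p6: Ncan chr8:70120795-70121094 and Bcan chr3:88000307-88000606 on the minus strand, Tnc chr4:64046966-64047265 on the minus strand (the first of 2 listed starts), and Ptprz1 chr6:22875252-22875551 on the plus strand. Capitals mark 4 motifs on either strand: the NFI motif TTGGC, the SOX core ACAAT, the octamer ATGCAAAT bound by POU factors, and the TATA box TATAAA.
Ncan: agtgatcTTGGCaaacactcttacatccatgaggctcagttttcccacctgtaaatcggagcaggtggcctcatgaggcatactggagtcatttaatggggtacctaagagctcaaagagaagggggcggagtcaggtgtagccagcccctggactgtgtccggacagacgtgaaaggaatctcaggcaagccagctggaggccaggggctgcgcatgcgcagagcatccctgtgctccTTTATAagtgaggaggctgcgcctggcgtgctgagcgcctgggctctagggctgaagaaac
Bcan: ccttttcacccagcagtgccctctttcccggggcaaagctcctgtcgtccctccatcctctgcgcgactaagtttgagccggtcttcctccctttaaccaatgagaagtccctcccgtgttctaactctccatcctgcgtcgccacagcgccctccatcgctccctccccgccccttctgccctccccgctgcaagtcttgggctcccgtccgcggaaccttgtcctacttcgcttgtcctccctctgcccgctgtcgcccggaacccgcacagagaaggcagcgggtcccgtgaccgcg
Tnc: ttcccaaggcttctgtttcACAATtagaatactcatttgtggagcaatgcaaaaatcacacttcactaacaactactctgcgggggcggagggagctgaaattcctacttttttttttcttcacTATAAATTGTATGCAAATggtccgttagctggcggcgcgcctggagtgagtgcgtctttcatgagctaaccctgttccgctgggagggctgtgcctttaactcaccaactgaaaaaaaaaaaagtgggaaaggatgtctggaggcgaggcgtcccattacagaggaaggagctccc
Ptprz1: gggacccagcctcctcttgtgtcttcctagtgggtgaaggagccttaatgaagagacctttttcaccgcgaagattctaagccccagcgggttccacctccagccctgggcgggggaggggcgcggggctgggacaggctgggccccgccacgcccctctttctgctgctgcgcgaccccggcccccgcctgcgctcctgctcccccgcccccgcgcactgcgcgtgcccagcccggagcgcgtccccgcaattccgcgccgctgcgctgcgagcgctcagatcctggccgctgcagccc
The Tnc window held the TATA box, 2 SOX cores and the octamer, with the TATA box and the nearer SOX core sharing a base. The Ncan window held 1 NFI motif and 1 TATA box, and none of the 4 motifs lay in the Bcan or Ptprz1 window. Of 32851 promoter windows of this length, 46.7% held the NFI motif, 31.0% the SOX core, 13.6% the TATA box and 1.7% the octamer. No searched motif was thus present in all 4 windows, and the TATA box was in both Ncan and Tnc. The matches are letters in a window and were not tested as binding sites.

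Barcodes were assigned to 12 cell types by gate markers, such as Slc1a3, Fabp7 and Sox9 for the astroglial gate (radial glia and astrocytes) and Pdgfra, Olig1 and Sox10 for oligodendrocyte precursors. At P0 the astroglial gate held 27.7% of barcodes in the knockout and 21.7% in the wild type. The precursor gate held 10.2% of barcodes in the P0 knockout and 5.06% in the P0 wild type, and 5 and 2 barcodes at E14.5. All 9 separate astroglial check markers were higher inside the astroglial gate than outside in 3 libraries, and 7 of 9 in the library labelled E14.5 knockout. Levels are given as CPM, summed counts scaled to the same total in every sum, and since CPM was not divided by transcript length, levels are compared within a gene only. In a whole-library sum, fewer cells of a type and less RNA per cell cannot be told apart.

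**Figure D1:**
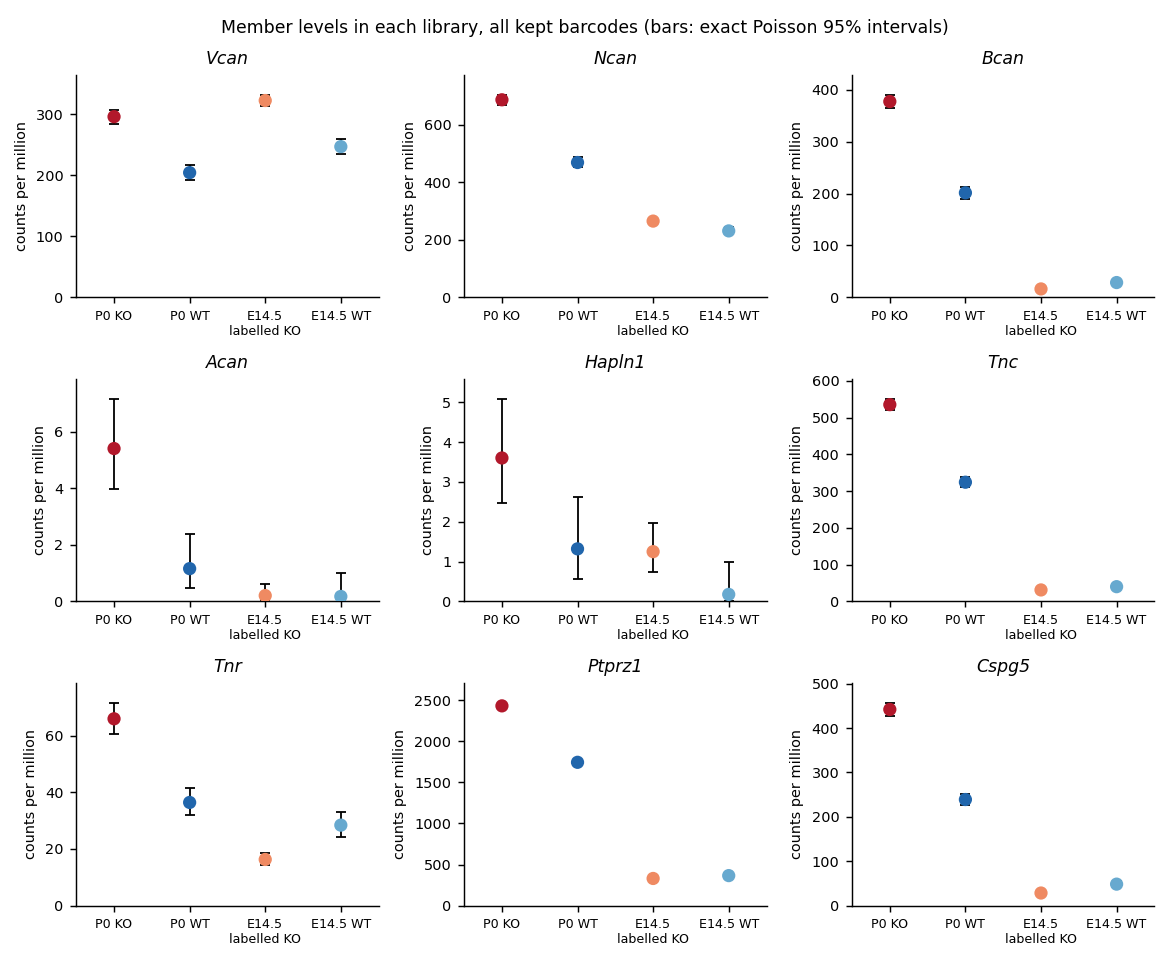
Summed level of each gene in each library, in CPM on a linear axis from 0, with points for the P0 knockout, P0 wild type, library labelled E14.5 knockout and E14.5 wild type and bars for exact Poisson 95% intervals. Ptprz1 stands at 2429.7 and 1743.3 CPM in the P0 libraries and at 330.9 and 365.7 CPM in the E14.5 libraries, while Vcan lies between 204.1 and 322.2 CPM in all 4.

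Vcan, the lectican of loose embryonic matrix, was counted in neurons, glia and meningeal cells. Its level was 295.7 CPM in the P0 knockout, 204.1 CPM in the P0 wild type, 322.2 CPM in the library labelled E14.5 knockout and 246.7 CPM in the E14.5 wild type. It was higher in the knockout-labelled library at both ages, and the ages overlapped. In the inhibitory neuron gate it stood at 449.1 CPM in the P0 knockout, 429.5 CPM in the P0 wild type, 521.8 CPM in the library labelled E14.5 knockout and 369.5 CPM in the E14.5 wild type. Oligodendrocyte precursors were level with inhibitory neurons at P0, with 459.4 CPM in the knockout and 427.8 CPM in the wild type, and the intervals of these 2 gates overlapped in both libraries. Meningeal fibroblasts had the highest Vcan of any gate of at least 30 barcodes in the library labelled E14.5 knockout, 852.1 CPM over 95 barcodes. The 13 fibroblast barcodes of the E14.5 wild type had 492.2 CPM.

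Within projection neurons Vcan was higher in the deep-layer than in the upper-layer split. All 3 upper-layer check markers were higher inside their split than outside in every library. For the deep-layer split this held for 3 of 3 in the P0 wild type and for 2 of 3 in each other library. The deep-layer split had 285.0 CPM and the upper-layer split 178.8 CPM in the P0 knockout, and 264.6 and 102.8 CPM in the P0 wild type. At E14.5 the deep and upper splits had 347.6 and 161.7 CPM in the library labelled knockout, and 289.2 and 122.5 CPM in the wild type. The order held in all 4 libraries without overlap of the intervals. In astroglia Vcan was 377.2 CPM in the P0 knockout and 193.0 CPM in the P0 wild type, a log2 ratio of 0.97 (interval 0.78 to 1.16). In the E14.5 wild type 1 barcode held 30% of the astroglial Vcan counts.

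Ncan, a lectican made by neurons and glia, stood far higher in astroglia than in neurons at P0, but not at E14.5. At P0 it was highest in astroglia, with 1663.8 CPM in the knockout and 1102.5 CPM in the wild type. That gate held 75.0% of all Ncan counts in the P0 knockout and 59.5% in the P0 wild type. At E14.5 projection neurons had 349.8 CPM in the library labelled knockout, where the interval overlapped that of inhibitory neurons, and 301.5 CPM in the wild type, where it overlapped that of astroglia. Astroglia then had 216.4 CPM in the library labelled E14.5 knockout and 244.9 CPM in the E14.5 wild type. With barcodes thinned to equal depth, astroglia and not projection neurons had the highest Ncan in the E14.5 wild type. Projection neurons at P0 had 248.9 CPM in the knockout and 262.8 CPM in the wild type, below their E14.5 levels in both cases. For whole libraries Ncan stood at 686.7 CPM in the P0 knockout, 468.6 CPM in the P0 wild type, 264.9 CPM in the library labelled E14.5 knockout and 230.8 CPM in the E14.5 wild type. Both P0 libraries lay above both E14.5 libraries.

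Bcan, the short brain-specific lectican, was counted mainly in 2 glial gates. Oligodendrocyte precursors had 945.4 CPM in the P0 knockout and 819.4 CPM in the P0 wild type, and astroglia had 833.3 CPM in the P0 knockout and 562.0 CPM in the P0 wild type. At E14.5 astroglia had 95.3 CPM in the library labelled knockout and 120.4 CPM in the wild type. Projection neurons had 10.3 CPM in the P0 knockout and 7.87 CPM in the P0 wild type. The whole-library level was 377.4 CPM in the P0 knockout, 201.4 CPM in the P0 wild type, 16.1 CPM in the library labelled E14.5 knockout and 28.4 CPM in the E14.5 wild type. Both P0 libraries were far above both E14.5 libraries. The E14.5 wild-type value rests on few barcodes: 1 barcode that passed no gate held 22.6% of its 159 counts.

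Acan, the lectican of perineuronal nets, was rare and sat mainly in precursors. It had 48 counts in the P0 knockout, 7 in the P0 wild type, 3 in the library labelled E14.5 knockout and 1 in the E14.5 wild type. The precursor gate held 34 of the 48 in the P0 knockout, at 37.5 CPM, and 6 of the 7 in the P0 wild type, at 18.1 CPM. The inhibitory neuron gate, whose adult cells carry perineuronal nets, had 0 Acan counts in all 4 libraries, which allows, at 3 counts, up to 4.92 CPM in the P0 knockout and 4.24 CPM in the P0 wild type. In precursors the log2 ratio of the P0 knockout over wild type was 1.05 with an interval of -0.21 to 2.60, which holds 0.

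Hapln1, the link protein that holds lecticans on hyaluronan, was at the edge of detection. It had 32 counts in the P0 knockout, 8 in the P0 wild type, 18 in the library labelled E14.5 knockout and 1 in the E14.5 wild type. Astroglia held 31 of the 32 counts of the P0 knockout and 6 of the 8 of the P0 wild type. At E14.5, 10 of the 18 counts of the library labelled knockout were in the endothelial gate of 41 barcodes, and 1 barcode held 4 of those 10. In RefSeq's GRCm38.p6 annotation each lectican gene has a link protein gene as a protein-coding neighbour: Hapln1 beside Vcan, Hapln4 beside Ncan, Hapln2 beside Bcan and Hapln3 beside Acan. The neighbours of Ncan and Bcan were near 0 in every library. Hapln4 had 8 counts in the P0 knockout, 1 in the P0 wild type and 0 in both E14.5 libraries. Hapln2 had 1 count in the P0 knockout, 0 in the P0 wild type, 0 in the library labelled E14.5 knockout and 1 in the E14.5 wild type.

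**Figure D2:**
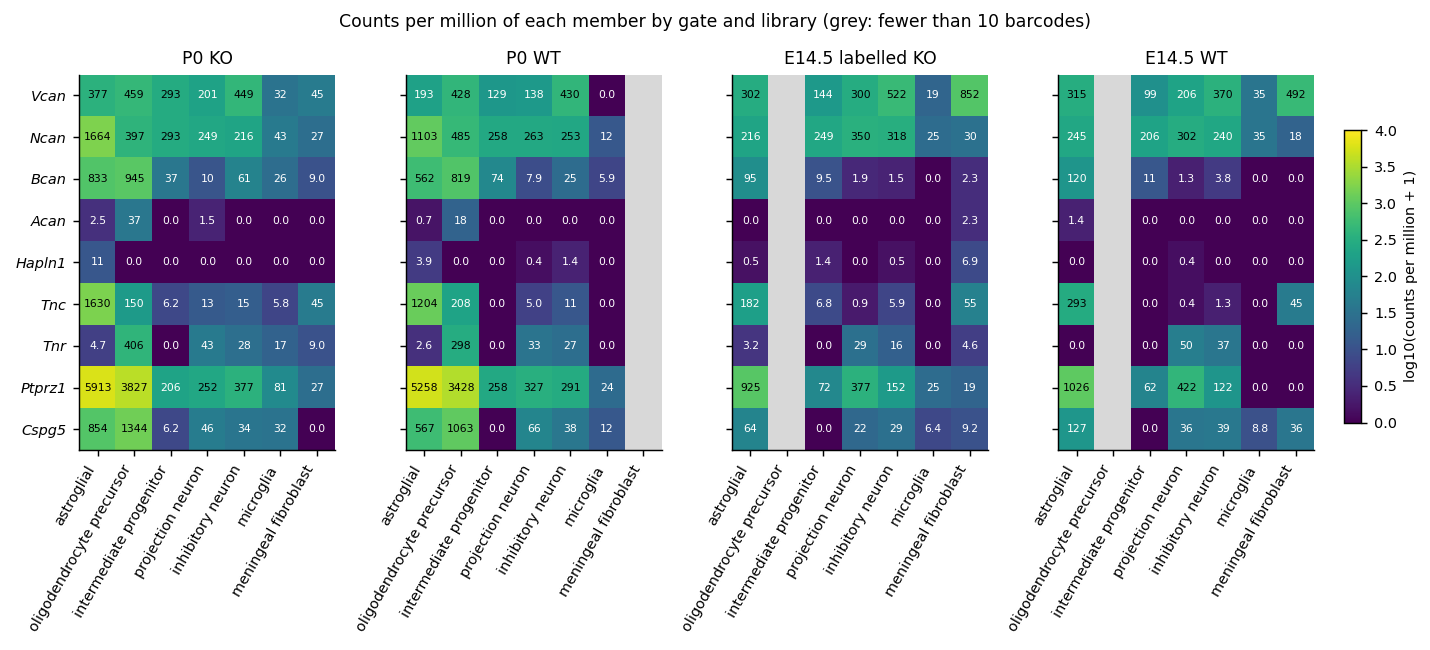
Level of each gene (rows) in 7 gates (columns), one panel per library, coloured by log10(CPM + 1) with the CPM printed in each cell and gates under 10 barcodes in grey. Tnr and Acan are highest in oligodendrocyte precursors at P0, Tnc and Ptprz1 in astroglia in every library, and Vcan is spread over most gates other than microglia.

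Tnc, the hexameric tenascin of germinal zones and immature astrocytes, was counted mainly in astroglia. Whole libraries had 535.4 CPM in the P0 knockout, 324.4 CPM in the P0 wild type, 31.4 CPM in the library labelled E14.5 knockout and 40.3 CPM in the E14.5 wild type. The astroglial gate held 94.2% of Tnc counts in the P0 knockout and 93.9% in the P0 wild type, then 75.1% in the library labelled E14.5 knockout and 94.7% in the E14.5 wild type. Astroglial levels were 1630.0 CPM in the P0 knockout, 1203.9 CPM in the P0 wild type, 182.1 CPM in the library labelled E14.5 knockout and 292.8 CPM in the E14.5 wild type. The P0 and E14.5 levels did not overlap. Precursors came next at P0, with 150.2 CPM in the knockout and 207.9 CPM in the wild type. Meningeal fibroblasts had 55.4 CPM (24 counts) in the library labelled E14.5 knockout. Astroglia without a cycling marker had more Tnc than cycling astroglia at P0, at 2062.1 against 1175.4 CPM in the knockout and 1415.9 against 1059.1 CPM in the wild type. Projection neurons had 35 Tnc counts in the P0 knockout and 12 in the P0 wild type, a log2 ratio of 1.37 (0.39 to 2.45). In that same gate the summed astroglial check markers stood at 237.9 CPM in the P0 knockout and 184.8 CPM in the P0 wild type, and their part in the Tnc difference was not tested. With a stricter gate the ratio was 0.79 and with a looser gate 0.55, both short of 2-fold.

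Tnr, the trimeric tenascin made by the oligodendrocyte lineage and some neurons, followed another pattern. At P0 it was highest in precursors, with 406.4 CPM in the knockout and 298.2 CPM in the wild type, while astroglia had 4.72 and 2.62 CPM. Projection neurons had 42.6 CPM in the P0 knockout and 33.2 CPM in the P0 wild type. At E14.5, with almost no precursors, projection neurons held most Tnr counts, 66.8% in the library labelled knockout and 74.8% in the wild type. Their level was 29.2 CPM in the library labelled E14.5 knockout and 50.4 CPM in the E14.5 wild type. Whole libraries had 65.9 CPM in the P0 knockout, 36.4 CPM in the P0 wild type, 16.3 CPM in the library labelled E14.5 knockout and 28.4 CPM in the E14.5 wild type. The 2 tenascins therefore had their highest P0 levels in different gates, Tnc in astroglia and Tnr in precursors, in both P0 libraries.

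Ptprz1, the receptor, was found in astroglia and precursors at high level and in neurons at a lower one. Whole libraries had 2429.7 CPM in the P0 knockout, 1743.3 CPM in the P0 wild type, 330.9 CPM in the library labelled E14.5 knockout and 365.7 CPM in the E14.5 wild type. Astroglial levels were 5913.0 CPM in the P0 knockout, 5257.8 CPM in the P0 wild type, 925.1 CPM in the library labelled E14.5 knockout and 1026.1 CPM in the E14.5 wild type. Precursors had 3826.8 CPM in the P0 knockout and 3428.3 CPM in the P0 wild type. Between ages the glial level was thus several-fold apart, and within an age the genotypes were close. In deep-layer projection neurons of the wild types Ptprz1 was 176.4 CPM at P0 and 491.1 CPM at E14.5, a log2 ratio of -1.48 (-2.10 to -0.91), while upper-layer neurons had 361.9 CPM at P0 and 368.9 CPM at E14.5. At P0 the deep-layer split of the wild type held 24 barcodes.

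Cspg5, neuroglycan C, a membrane-spanning chondroitin sulfate proteoglycan with an EGF-like domain, was highest in precursors at P0. They had 1344.1 CPM in the P0 knockout and 1063.4 CPM in the P0 wild type, and astroglia had 853.7 CPM in the P0 knockout and 567.3 CPM in the P0 wild type. Whole libraries had 441.8 CPM in the P0 knockout, 239.0 CPM in the P0 wild type, 28.5 CPM in the library labelled E14.5 knockout and 48.5 CPM in the E14.5 wild type. Both P0 libraries were above both E14.5 libraries. Cspg5 ran opposite ways in glia and projection neurons at P0. In projection neurons it was 46.3 CPM in the P0 knockout and 65.9 CPM in the P0 wild type, a log2 ratio of -0.51 (-0.86 to -0.16), against 0.59 (0.48 to 0.70) in astroglia. Whether the 2 ratios differ beyond animal-to-animal spread was not tested. Microglia of the P0 knockout had 11 Cspg5 counts, 31.9 CPM (15.9 to 57.1), an interval that overlaps that of its projection neurons (38.5 to 55.1). The part of transcripts from other cells in the neuronal level was not tested.

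The 9 genes met in the same barcodes mainly in P0 glia. With every barcode thinned to 1500 counts and gated again, an astroglial barcode held a mean of 3.81 of the 9 genes in the P0 knockout, 3.59 in the P0 wild type, 1.52 in the library labelled E14.5 knockout and 1.89 in the E14.5 wild type. Precursor barcodes held 3.84 in the P0 knockout and 3.54 in the P0 wild type. Projection neuron barcodes held between 0.962 and 1.06 in all 4 libraries, with the ages overlapping. Inhibitory neuron barcodes held 1.27 in the P0 knockout, 1.18 in the P0 wild type, 0.967 in the library labelled E14.5 knockout and 0.918 in the E14.5 wild type. Intermediate progenitors held 0.892 in the P0 knockout, 0.833 in the P0 wild type, 0.52 in the library labelled E14.5 knockout and 0.586 in the E14.5 wild type, so the P0 means were above the E14.5 means in these gates as in astroglia. Microglia, which should lack these genes, held 0.163 and 0.19 in the P0 knockout and wild type, and 0.133 and 0.0769 in the library labelled E14.5 knockout and E14.5 wild type. For Tnc, 62.7% of thinned astroglial barcodes had a count in the P0 knockout and 59.9% in the P0 wild type, and 78.4% and 78.0% before thinning at median depths of 5873.5 and 5832 counts. At E14.5 the thinned share was 16.5% in the library labelled knockout and 36.8% in the wild type, against 25.4% and 51.4% before thinning at medians of 3025 and 8351. In microglia Tnc was counted in 4.55% of 44 barcodes in the P0 knockout (median 5825 counts) and in 0 of 21, 46 and 13 barcodes of the other libraries.

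All 9 genes were higher in the P0 knockout than in the P0 wild type over whole libraries, with every counting interval above 0. The log2 ratios were 0.53 for Vcan, 0.55 for Ncan, 0.91 for Bcan, 2.22 for Acan, 1.44 for Hapln1, 0.72 for Tnc, 0.86 for Tnr, 0.48 for Ptprz1 and 0.89 for Cspg5. Acan (interval 1.07 to 3.61) and Hapln1 (0.29 to 2.77) were past 2-fold, 2 of 9, where 4.77% of all 13846 genes compared were past 2-fold. The median of the 9 was 0.86, against 0.05 over all genes compared. Of the 660 genes past 2-fold, 517 were higher in the knockout and 143 lower. How many of all genes lay above 0, or had an interval above 0, was not counted. The precursor gate held 10.2% of barcodes in the P0 knockout and 5.06% in the P0 wild type, and precursor gate markers summed to 817.0 CPM in the P0 knockout and 478.8 CPM in the P0 wild type. With the knockout recomputed at the wild type's gate shares the ratios were 0.48 for Vcan, 0.36 for Ncan, 0.51 for Bcan, 1.63 for Acan, 1.16 for Hapln1, 0.43 for Tnc, 0.48 for Tnr, 0.15 for Ptprz1 and 0.48 for Cspg5. All 9 stayed above 0 and all were smaller than over whole libraries. Hapln1 rests on few counts: thinned to equal depth it had 5 counts in each P0 library, 2.32 CPM in the knockout and 3.19 CPM in the wild type, so its direction was not kept.

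Within the P0 astroglial gate 7 genes had enough counts, and all 7 were higher in the knockout with intervals above 0. The log2 ratios were 0.97 for Vcan, 0.59 for Ncan, 0.57 for Bcan, 1.52 for Hapln1 (0.24 to 3.07), 0.44 for Tnc, 0.17 for Ptprz1 and 0.59 for Cspg5. Thinned, Hapln1 had 8.35 CPM in the P0 knockout and 11.7 CPM in the P0 wild type (5 and 4 counts), the other direction. Hapln1 was the 1 of 7 past 2-fold, beside 4.59% of 10784 genes compared in that gate. Of the 495 genes past 2-fold there, 378 were higher in the knockout and 117 lower. The median of all genes in that gate was 0.04, and the share above 0 was not counted. Summed astroglial gate markers stood at 21997.4 CPM in the P0 knockout and 22095.0 CPM in the P0 wild type. These markers chose the barcodes, so their sums cannot show whether the 2 gates hold like cells. The separate astroglial check markers summed to 4541.8 CPM in the P0 knockout and 4201.8 CPM in the P0 wild type. Check markers of maturing astrocytes also differed: within the maturing split they summed to 7199.1 CPM in the P0 knockout and 4690.6 CPM in the P0 wild type. Their part in the members' ratios was not tested. In that split Vcan was 475.5 CPM in the P0 knockout and 221.7 CPM in the P0 wild type, and the log2 ratio of Ncan was 0.62 (0.54 to 0.71). In the 24 P0 knockout and 21 P0 wild-type astroglial barcodes with no maturing marker, Ncan was at 0.09 (-0.53 to 0.71) and Bcan at 0.06 (-0.88 to 0.99). Of the 5 genes with enough counts there, 4 were above 0 and 1 below, from -0.19 to 1.17. An interval above 0 was found for 1 of them, and 1 was past 2-fold, beside 8.69% of 1600 genes compared. Summed precursor check markers in the astroglial gate stood at 233.3 CPM in the P0 knockout and 244.0 CPM in the P0 wild type. In cycling astroglia Ptprz1 went the other way, with 3717.2 CPM in the P0 knockout and 4073.2 CPM in the P0 wild type, a log2 ratio of -0.13 (-0.20 to -0.06).

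Projection neurons and precursors of the P0 knockout had members on both sides of 0. Of 7 projection neuron genes with enough counts, 4 were above 0 and 3 below, and Tnc was the 1 past 2-fold, beside 3.15% of 10148 genes compared. Vcan had a log2 ratio of 0.54 (0.34 to 0.74) and Ptprz1 of -0.37 (-0.52 to -0.23). Ncan had -0.08 (-0.24 to 0.08), Tnr 0.36 (-0.06 to 0.79) and Bcan 0.38 (-0.51 to 1.31), whose intervals hold 0. In precursors 1 of 8 genes was past 2-fold, Acan, beside 5.95% of 7550 genes compared. There Tnr was 0.45 (0.12 to 0.78) and Cspg5 0.34 (0.17 to 0.51) above the wild type on the log2 scale, while Tnc was -0.47 (-0.90 to -0.03) and Ncan -0.29 (-0.56 to -0.01).

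**Figure D3:**
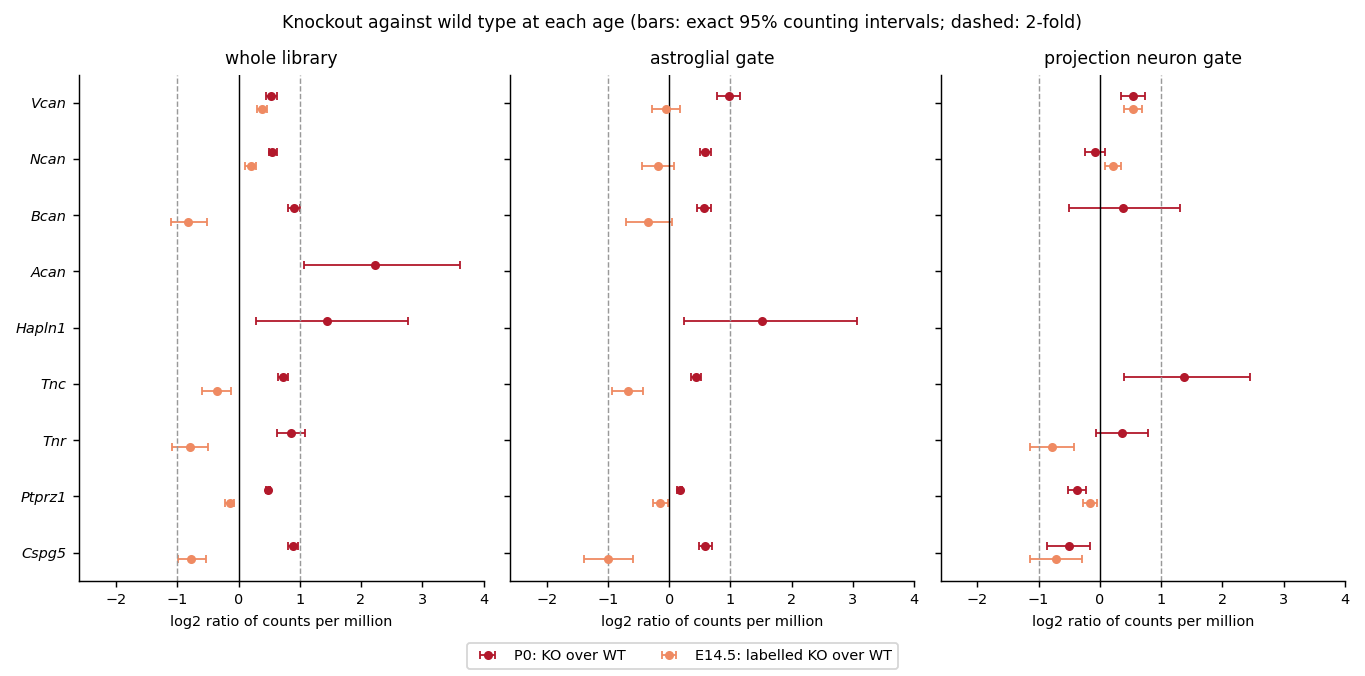
Log2 ratio of CPM, knockout over wild type at P0 and library labelled knockout over wild type at E14.5, for whole libraries, the astroglial gate and the projection neuron gate, with exact 95% counting intervals and dashed lines at 2-fold. At P0 all 9 genes lie above 0 over whole libraries, and at E14.5 Bcan, Tnc, Tnr, Ptprz1 and Cspg5 lie below it.

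At E14.5, 5 of the 7 genes with enough counts were lower in the library labelled knockout and 2 were higher. Over whole libraries Vcan was 0.39 (0.30 to 0.47) and Ncan 0.20 above the wild type on the log2 scale. Bcan was -0.82 (-1.11 to -0.52), Tnc -0.36 (-0.59 to -0.12), Tnr -0.80 (-1.09 to -0.50), Ptprz1 -0.14 (-0.22 to -0.07) and Cspg5 -0.77 (-0.99 to -0.54). Past 2-fold were 0 of the 7, where 6.51% of 14136 genes compared were. Thinned to equal depth, the Bcan ratio was -0.05, and without the barcode with most Bcan counts in each library it was -0.49.

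In E14.5 astroglia 0 of 6 genes were past 2-fold, beside 10.7% of 9227 genes compared, and in projection neurons 0 of 5, beside 6.32% of 10787 genes compared. Astroglial Tnc was at a log2 ratio of -0.68 (-0.94 to -0.43), or -1.54 at equal depth, and Cspg5 at -1.0 (-1.40 to -0.59), or -0.68 without the barcode with most counts. Astroglial gate markers summed to 6189.0 CPM in the library labelled E14.5 knockout and 8571.3 CPM in the E14.5 wild type, and cycling check markers to 1210.6 and 708.7 CPM. Their part in these ratios was not tested. In projection neurons Vcan was 0.54 (0.39 to 0.69), Ncan 0.21 (0.09 to 0.34), Tnr -0.79 (-1.14 to -0.43), Ptprz1 -0.16 (-0.27 to -0.05) and Cspg5 -0.72 (-1.14 to -0.30) on the log2 scale. The deep-layer split made up 954 of 1491 projection neuron barcodes in the library labelled E14.5 knockout, against 117 of 267 in the E14.5 wild type. Within the deep-layer split Vcan was 0.27 (0.09 to 0.44) and Tnr -0.80 (-1.21 to -0.38).

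Between the wild types, 5 of 7 genes were past 2-fold higher at P0 than at E14.5 over whole libraries, where 11.2% of 13270 genes compared were past 2-fold in either direction. The log2 ratios were 1.02 for Ncan, 2.83 for Bcan, 3.01 for Tnc, 2.25 for Ptprz1 and 2.30 for Cspg5. At E14.5 gate shares, over 6 gates without the precursors, they were 0.57 for Ncan, 1.86 for Bcan, 2.08 for Tnc, 1.42 for Ptprz1 and 1.41 for Cspg5, which leaves 4 past 2-fold. Over whole libraries Tnr was 0.36 (0.06 to 0.66) and Vcan -0.27 (-0.39 to -0.16). In astroglia the same 5 genes were past 2-fold of 6 compared, beside 14.1% of 9066 genes. Their ratios lay close together, at 2.17 for Ncan, 2.22 for Bcan, 2.04 for Tnc, 2.36 for Ptprz1 and 2.16 for Cspg5, while Vcan was -0.71 (-0.96 to -0.45), or -0.25 without the barcode with most Vcan counts. The astroglial gate is not the same mix at the 2 ages: maturing-astrocyte markers split off 139 of 227 barcodes at P0 and 15 of 72 at E14.5. Cycling check markers summed to 399.1 CPM at P0 and 708.7 CPM at E14.5, and the part of either in the ratios was not tested. In astroglia with no maturing marker (21 barcodes at P0, 40 at E14.5), ratios ran from -0.16 to 1.49. There 1 of 6 genes was past 2-fold, beside 13.6% of 3389 genes compared. In the maturing split ratios ran from -1.12 to 2.63, and 6 of 6 were past 2-fold, beside 20.9% of 7178 genes compared.

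In wild-type projection neurons 0 of 5 genes were past 2-fold, beside 9.4% of 10010 genes compared. Vcan was -0.58 (-0.78 to -0.38), Ncan -0.20 (-0.36 to -0.04), Tnr -0.60 (-1.03 to -0.18) and Ptprz1 -0.37 (-0.51 to -0.23) at P0 over E14.5, and Cspg5 was 0.89 (0.50 to 1.29). The layers in this gate differ by age: the upper-layer split held 381 and the deep-layer split 24 of 454 barcodes at P0, against 90 and 117 of 267 at E14.5. Within the upper-layer split Vcan was -0.25 (-0.62 to 0.13), Tnr 0.02 (-0.66 to 0.76), Ptprz1 -0.03 (-0.23 to 0.18) and Ncan -0.30 (-0.53 to -0.07). Within the deep-layer split Vcan was -0.13 (-0.65 to 0.35), Tnr -0.95 (-2.61 to 0.34) and Ncan -0.08 (-0.58 to 0.38), whose intervals hold 0, and Ptprz1 was -1.48 (-2.10 to -0.91). The P0 wild type enters both this comparison and the one between P0 genotypes, and the E14.5 wild type enters both this one and the E14.5 one, so their values are not independent. Acan and Hapln1 had too few counts at E14.5 for a ratio. The Tnr value over whole libraries depends on the precursors: over the 6 gates with at least 10 barcodes at both ages, which leave the precursors out, it was -0.49.

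**Figure D4:**
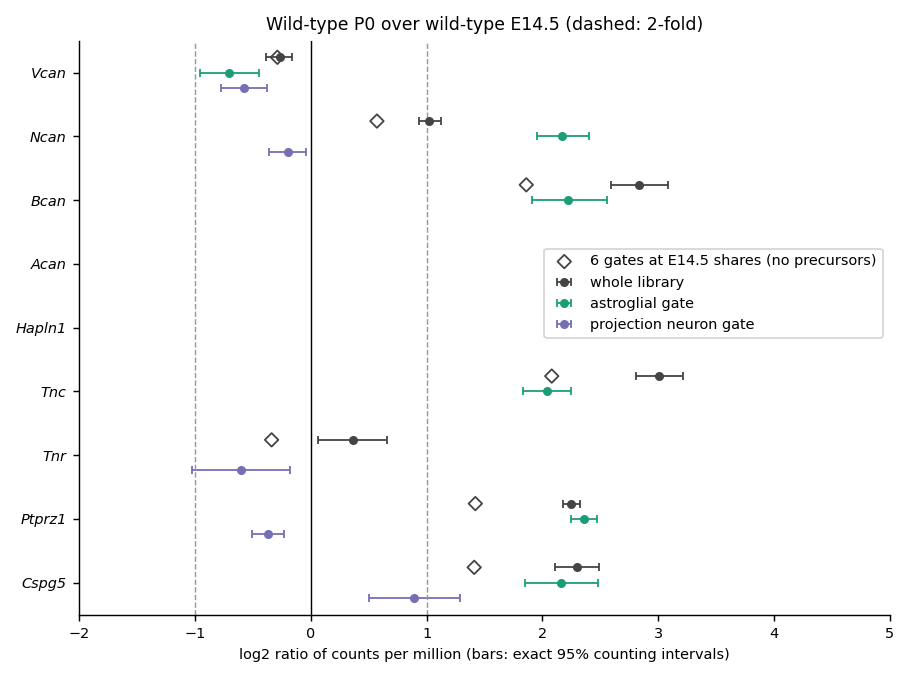
Log2 ratio of CPM in wild type, P0 over E14.5, for the whole library, the astroglial gate and the projection neuron gate, with exact 95% counting intervals, open diamonds for the 6 shared gates at E14.5 shares, and dashed lines at 2-fold. In astroglia Ncan, Bcan, Tnc, Ptprz1 and Cspg5 lie between 2.04 and 2.36, and in projection neurons Vcan, Ncan, Tnr and Ptprz1 lie below 0.

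Genes that build, bind and cut the matrix were followed as 6 lists of 78 genes in all. Between P0 genotypes 63 had enough counts, of which 50 were above 0, 13 below and 7 past 2-fold, all higher in the knockout, beside the 4.77% background above. Their median log2 ratio was 0.31, against 0.05 over all genes. These are whole-library values, and the share of all genes above 0 was not counted. In the P0 astroglial gate 37 of 51 listed genes were above 0 and 5 past 2-fold, beside 4.59% of all genes compared there. In P0 projection neurons 28 of 42 were above 0 and 1 past 2-fold, beside 3.15%. For linkage and chain synthesis 11 of 13 were above 0, and Csgalnact1, which adds the first N-acetylgalactosamine of a chondroitin chain, stood at 11.6 CPM in the P0 knockout and 3.81 CPM in the P0 wild type. Xylt2, a xylosyltransferase that starts the linkage, was at 0.73, B4galt7 at -0.25 and B3galt6 at -0.04 on the log2 scale.

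For sulfation and epimerisation 9 of 11 were above 0 at P0 and none past 2-fold. The 6-sulfotransferase Chst3 was at 0.90, the epimerase Dse at 0.75, the sulfotransferase Ust at -0.06 and the epimerase Dsel at -0.62 (-0.85 to -0.39). Hyaluronan genes gave 5 of 7 above 0, with the synthase Has2 at 11 CPM in the P0 knockout and 4.3 CPM in the P0 wild type, and the hyaluronan receptor Cd44 at 17.3 and 7.94 CPM. The hyaluronidases Hyal1 and Hyal2 were at -0.02 and -0.09 on the log2 scale. In astroglia Has2 stood at 29.8 CPM in the P0 knockout and 8.51 CPM in the P0 wild type, a log2 ratio of 1.81 (0.96 to 2.78).

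Among partners and receptors 11 of 16 were above 0 at P0. Contactin 1 (Cntn1), which binds Ptprz1 and Tnr, had 155.3 CPM in the P0 knockout and 69.3 CPM in the P0 wild type, and Egfr was at 0.54, L1cam at -0.38 and Rtn4rl1 at -0.65 on the log2 scale. For other proteoglycans and tenascins 4 of 6 were above 0, with Cspg4 (NG2, a precursor marker) at 0.91, Aplp2 at 0.39, Srgn at -0.01 and Spock1 at -0.77. In the lectican cleavage list, which also holds the Timp inhibitors, 10 of 10 genes were above 0 and 3 were past 2-fold. Of these Mmp9, a secreted metalloproteinase, had 7.87 CPM in the P0 knockout and 1.66 CPM in the P0 wild type, Mmp2 was at 1.17, and the lowest were Adamts4 at 0.31 and Mmp14 at 0.34. Within gates, 5 of 6 cleavage genes were above 0 in astroglia and 3 of 6 in projection neurons, with 0 past 2-fold in each. Microglia made up 3.06% of P0 knockout and 2.01% of P0 wild-type barcodes, and meningeal fibroblasts 1.04% and 0.573%. The part of these shares in the list was not tested.

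At E14.5, 68 listed genes had enough counts, of which 41 were above 0, 27 below and 6 past 2-fold, 3 in each direction, beside the 6.51% background, with a median of 0.12 against 0.06 over all genes. Linkage and chain synthesis ran from Chsy3 at 0.96 and Xylt1 at 0.69 to Xylt2 at -0.12 and Uxs1 at -0.40 (11 of 14 above 0). Sulfation ran from Chst12 at 0.62 and Papss1 at 0.54 to Ust at -0.34 and Chst11 at -0.57 (6 of 10). Hyaluronan genes were led by Hapln3 at 1.29 and Tnfaip6 at 1.16 and ended with Cd44 at -0.97 and Hyal1 at -1.50 (7 of 9). Partners ran from Nfasc at 0.43 and L1cam at 0.40 to Egfr at -0.96 and Rtn4rl1 at -1.17 (8 of 17). Other proteoglycans ran from Spock3 at 1.93 and Aplp2 at 0.18 to Srgn at -0.47 and Cspg4 at -0.83 (3 of 7). The cleavage list ran from Adamts20 at 0.64 and Adamts5 at 0.56 to Mmp2 at -0.45 and Mmp9 at -1.98 (6 of 11). Mmp9 thus had 7.78 CPM in the library labelled E14.5 knockout and 30.7 CPM in the E14.5 wild type, the opposite side of 0 from P0, and the difference between ages was not tested.

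Between wild types, P0 over E14.5, 63 listed genes had enough counts, of which 37 were above 0, 26 below and 15 past 2-fold, 9 higher and 6 lower, beside the 11.2% background. The median was 0.11, against 0.07 over all genes. Xylt1, the other xylosyltransferase, stood at 47.3 CPM at P0 and 8.92 CPM at E14.5, and Egfr at 58.8 and 6.06 CPM. Xylt2 was at 0.58, B4galt7 at -0.20 and B3galt6 at -0.16 (9 of 13 above 0), and in sulfation Chst7 was at 1.45, Dsel at 0.87, Chst15 at -0.98 and Dse at -1.02 (6 of 10). Hyaluronan genes ran from Hapln3 at 2.25 and Has2 at 1.59 to Cemip2 at -0.41 and Cemip at -1.66 (5 of 8). Beside Egfr, the integrin subunit Itgav was at 1.34, and Rtn4rl1 at -1.23 and the tenascin-binding integrin subunit Itga8 at -1.65 were lowest (9 of 17). Other proteoglycans ran from Cspg4 at 1.71 and Spock2 at 0.29 to App at -0.19 and Spock1 at -0.58 (4 of 6). The cleavage list ran from the inhibitor Timp3 at 0.91 and Adamts9 at 0.48 to Mmp2 at -1.90 and Mmp9 at -4.21 (4 of 9).

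**Figure D5:**
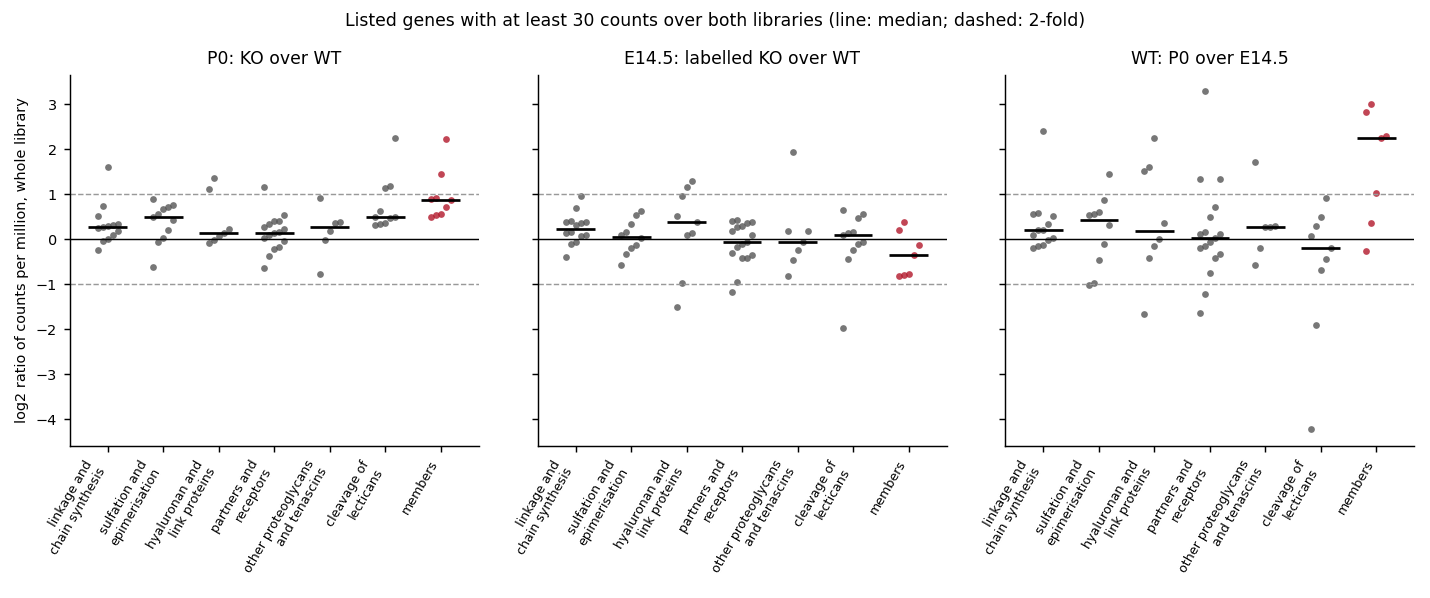
Whole-library log2 ratio of CPM for each listed gene and each of the 9 genes (rightmost column of each panel), by list, with a line at the median and dashed lines at 2-fold, for genes that reached 30 counts in the pair of libraries. The 9 genes all lie above 0 between P0 genotypes, and 5 of the 7 shown lie past 2-fold between wild-type ages.

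Genes with the most similar pattern to each member were ranked by Pearson correlation of log2(CPM + 10) over the 22 gate-and-library sums of at least 30 barcodes, which share libraries and depth, so r is a description only. The nearest were Mras (0.952), Syt11 and Gpm6b for Ncan, Inka2 (0.944), Sox8 and Kcnj10 for Bcan, and Tmod2 (0.862), Wdr82 and Tram1l1 for Vcan. Pcdh15 (0.926), Shc4 and Pcdh11x were nearest to Acan, and Itga1 (0.918), Epas1 and Gng11 to Hapln1. Acan and Hapln1 had only 59 counts each over all 4 libraries, where ranked genes needed 500. Their nearest genes therefore rest on few counts in few sums. For the tenascins they were Cybrd1 (0.960), Aldh1l1 and Acsbg1 for Tnc, and Elfn2 (0.938), Anks1b and Dscam for Tnr. Fam181b (0.924), Adgrb2 and Slitrk2 were nearest to Ptprz1, and Etv4 (0.918), B3gat2 and Gpt2 to Cspg5. Among the 9 genes themselves the closest pairs over these sums were Cspg5 with Ptprz1 at 0.90, Bcan with Cspg5 at 0.88 and Bcan with Tnc at 0.87.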

How the data were processed

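The deposited values are raw counts, whole numbers per gene and barcode, for 57126 features in each library. The submitters' processing notes name GRCm39, FastQC 0.12.1, Seurat 5 and R 4.3.2 without a role. The aligner, the annotation, the use of strand and whether reads were collapsed to molecules are not stated in the labels or headers, so intervals and limits cover counting error only.

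Barcodes were filtered at a minimum of 500 counts and 300 genes and a mitochondrial maximum of 10%. This left 8894856 counts in the P0 knockout, 6042033 in the P0 wild type, 14404051 in the library labelled E14.5 knockout and 5606381 in the E14.5 wild type. A barcode entered a gate when at least 2 markers of that list were counted and the list's share of markers counted led every other list by 20 percentage points, with at least 3 of 5 markers for precursors. This left 10.9%, 10.5%, 19.1% and 11.6% of barcodes, in the same order, without a gate. Doublets were not removed. Scrublet in scanpy 1.11.5 called 6, 3, 0 and 2 barcodes, in the same order, and whether it missed doublets was not tested.

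Counts were summed over barcodes and scaled to CPM. A log2 ratio needed 30 counts or more in the 2 sums together and has an exact conditional binomial interval. Shares have exact binomial (Clopper-Pearson) and CPM exact Poisson intervals. No p-value was computed. Ratio and thinning steps were tested on simulated data. Named listed genes are the 2 highest and 2 lowest of each list over whole libraries. Thinning left out 1, 1, 141 and 1 barcodes below 1500 counts, in the same order, and gates were called again on the thinned counts. Astroglial Has2, the link protein neighbours and the splits that are printed were picked after their values were seen. Members and lists were chosen with earlier results of these data known, and the gate rule was set after the files were seen without reading any member. Computation used scipy 1.17.1 and numpy 2.4.6 with pandas 2.3.3 in Python 3.11.15, and figures matplotlib 3.10.9.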

Additional observations from a re-analysis of the deposited data

Results flagged for a closer look

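Several genes had counting intervals on opposite sides of 0 between the genotype comparisons of the 2 ages. With 1 animal per group the difference between ages was not tested. The share of all genes that meet this rule was not computed, so the flag does not set these genes apart from others. Over whole libraries Bcan had a log2 ratio of 0.91 (0.81 to 1.00) for the P0 knockout over wild type and -0.82 (-1.11 to -0.52) for the library labelled E14.5 knockout over wild type. Tnc had 0.72 (0.65 to 0.80) at P0 and -0.36 (-0.59 to -0.12) at E14.5. Tnr had 0.86 (0.63 to 1.09) at P0 and -0.80 (-1.09 to -0.50) at E14.5. Ptprz1 had 0.48 (0.45 to 0.51) at P0 and -0.14 (-0.22 to -0.07) at E14.5. Cspg5 had 0.89 (0.80 to 0.97) at P0 and -0.77 (-0.99 to -0.54) at E14.5.

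In astroglia Tnc had 0.44 (0.36 to 0.52) at P0 and -0.68 (-0.94 to -0.43) at E14.5, Ptprz1 had 0.17 (0.13 to 0.21) and -0.15 (-0.27 to -0.02), and Cspg5 had 0.59 (0.48 to 0.70) and -1.0 (-1.40 to -0.59). At E14.5 median depth was 2829 counts in the library labelled knockout and 7345.5 in the wild type. Thinned to 1500 counts per barcode, the E14.5 whole-library ratios were -0.05 for Bcan, -0.60 for Tnc, -0.91 for Tnr, -0.14 for Ptprz1 and -0.63 for Cspg5, so that of Bcan was close to 0. The thinned astroglial ratios were -1.54 for Tnc, -0.44 for Ptprz1 and -1.09 for Cspg5.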

How the results depend on the processing

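With 1 animal per group the intervals hold counting error only, and no alternative stands in for replicates. Over the alternatives 508 of the members' log2 ratios stayed within their counting interval, 52 moved outside it and 2 reversed. The 508 include 59 values from each of the 2 changes of the count minimum. Those changes alter which genes are admitted and never a ratio, so these values could not move. Thinning to 1500 counts moved 23 and gate shares 11. The reversed values were Ncan in projection neurons, P0 over E14.5, at 0.06 when thinned, whose cause was not tested, and Tnr over whole libraries, P0 over E14.5, at -0.34 at E14.5 gate shares, which leave the precursors out. The gate with the highest level was the same in 29 to 35 of 36 gene and library pairs.

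Thinned, 0 of the genes were past 2-fold in the P0 knockout over whole libraries (2 otherwise) and 0 in its projection neurons (1 otherwise), and 2 in E14.5 astroglia (0 otherwise). The lost P0 calls fell under the 30-count minimum: thinned, Acan had 17 counts in the knockout and 0 in the wild type, and projection neuron Tnc 12 counts (20.5 CPM) and 3 counts (5.31 CPM), while Hapln1 had 5 in each. Listed genes past 2-fold were then 4 at P0 (7 otherwise) and 8 between ages (15 otherwise), and all genes 410 at P0 (660 otherwise) and 837 between ages (1489 otherwise). A stricter gate and a looser gate each gave 0 in P0 projection neurons and 1 in E14.5 astroglia, and the looser gate 1 in projection neurons between ages (0 otherwise). Median-of-ratios scaling gave 1 in E14.5 astroglia, and leaving out the 5% highest doublet scores 2 in P0 astroglia (1 otherwise).

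With a minimum of 10 counts, 1 gene was past 2-fold at E14.5 over whole libraries (0 otherwise) and 2 in projection neurons between ages, and all genes numbered 1633 at P0, 1924 at E14.5 (920 otherwise) and 2616 between ages. With no minimum the genes past 2-fold were 2 in P0 astroglia, 2 in P0 projection neurons, 1 at E14.5 over whole libraries, 1 in E14.5 astroglia, 1 in E14.5 projection neurons (0 otherwise) and 2 in projection neurons between ages. Listed genes were then 13 at P0 and 11 at E14.5 (6 otherwise), and all genes 7332 at P0, 7629 at E14.5 and 7501 between ages. The causes of these shifts were not tested, apart from the number of genes a minimum admits. No paired analysis was possible because each group is 1 animal.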
